A study of Homo sapiens with 6 samples.

Results

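The cyclins and cyclin-dependent kinases (CDKs) that drive the cell division cycle were examined in NCI-H929, an established human multiple myeloma cell line, after loss of either subunit of ribonucleotide reductase. The set was chosen by name, with earlier results of these data known. It comprised 10 genes: the cyclins CCND3, CCNE1, CCNE2, CCNA2, CCNB1 and CCNB2 and the kinases CDK1, CDK2, CDK4 and CDK6. Of 11963 genes named by 1 symbol in the platform annotation these are 10, and all 16 of their probe sets were used, of 22277 on the array. None of the 16 was shared with another gene symbol. Each of the 6 arrays measured RNA taken 24 h after electroporation of the cells with small interfering RNA (siRNA). The siRRM1 group (2 arrays) received siRNA to the large reductase subunit, the siRRM2 group (2 arrays) siRNA to the small subunit, and the scramble group (2 arrays) a non-targeting siRNA. All groups were the same parental cell line, and electroporation itself was common to all of them. The labels do not tell whether these pairs of arrays were separate cultures, so a p-value covers only the spread between these arrays, which may be technical.

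A CDK is inactive without a cyclin, and cyclins are named for the periodic rise and fall of their levels. D-type cyclins with CDK4 or CDK6 act in G1, where they phosphorylate the retinoblastoma protein. E-type cyclins with CDK2 act at the G1/S boundary, cyclin A acts in S phase and G2, and B-type cyclins with CDK1 bring cells into mitosis. The E-type cyclins are transcribed under E2F factors at the start of S phase, and the mitotic cyclins and CDK1 are transcribed late in the cycle through promoter elements called CCAAT boxes and cell cycle genes homology regions (CHR). Ribonucleotide reductase makes deoxyribonucleotides, so its loss limits the S phase substrate. In RNA from whole cultures, a change in the share of cells in a phase and a change of RNA per cell cannot be told apart.

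The promoters of the members that act in S phase, G2 and mitosis are shown because the called fall among them was that of CCNB1 alone, and the elements known for late-cycle genes can be set side by side in the windows. The 150 bases before the listed start site follow, 5′ to 3′, from RefSeq (GRCh38.p14). Capitals mark, on either strand, the CCAAT box and the CHR. The CHR was searched as TTTGAA, its usual form, and as 3 variants, TTTAAA (the form found in CCNB1), CTTGAA (the form found in CCNA2) and also TTCGAA, which none of the windows shown held.
CCNB1 (chr5:69167000-69167149, plus strand): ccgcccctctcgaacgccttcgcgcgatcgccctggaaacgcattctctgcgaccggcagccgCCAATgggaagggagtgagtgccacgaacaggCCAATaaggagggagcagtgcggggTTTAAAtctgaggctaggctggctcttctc
CCNB2 (chr15:59104996-59105145, plus strand): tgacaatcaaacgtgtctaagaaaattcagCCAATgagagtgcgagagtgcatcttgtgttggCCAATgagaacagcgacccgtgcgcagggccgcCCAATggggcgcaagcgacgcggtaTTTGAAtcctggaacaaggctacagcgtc
CCNA2 (chr4:121823884-121824033, minus strand): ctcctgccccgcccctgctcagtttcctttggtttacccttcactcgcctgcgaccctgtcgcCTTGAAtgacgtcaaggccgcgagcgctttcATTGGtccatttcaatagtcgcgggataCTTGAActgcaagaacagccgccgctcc
CDK1 (chr10:60778328-60778477, plus strand): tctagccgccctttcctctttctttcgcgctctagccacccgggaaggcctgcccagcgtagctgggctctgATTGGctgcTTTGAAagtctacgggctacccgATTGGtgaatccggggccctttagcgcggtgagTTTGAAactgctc

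The CCNB1 window held CCAAT starting 87 and 55 bases before the start site and TTTAAA at 30. CCNB2 held CCAAT at 120, 87 and 54 and TTTGAA at 29. CCNA2 held CTTGAA at 87 and 28 and CCAAT on the reverse strand at 56. CDK1, for which the more downstream of 2 listed starts is shown, held TTTGAA at 69 and 13 and reverse-strand CCAAT at 78 and 46. Of all 35116 such windows, 23.5% held CCAAT, 17.3% held at least 1 of the 4 CHR forms and 4.47% held both kinds of element. All 4 windows shown held both, but this was to be found by design. The elements are known for late-cycle genes, and the forms searched include those found in CCNB1 and CCNA2. The shares are therefore given as background and test no enrichment. The E2F motif TTTNNCGC was found in the CDK1 window at 128 and 27, and in 3.69% of all windows. These matches describe letters and do not show binding.

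Signals are the authors' log2 values, already on a common scale. The array medians lay between 6.11 and 6.16, and all 9 plasma cell and myeloma markers examined, among them TNFRSF17, XBP1 and SDC1, lay at or above the 82.5th percentile of probe set means. Of 12 markers of T, myeloid, epithelial and stromal cells, 4 passed the filter on dim probe sets and 1, the myeloid receptor CSF1R, was called higher in siRRM1, with mean log2 signals of 7.20 in siRRM1 and 5.70 in scramble. The summed log2 signal of the 3 myeloid markers was 14.2 to 15.2 in siRRM1 and 12.9 to 13.3 in scramble, with CD14 and LYZ below the filter, and its part in the results was not tested. All 9 plasma cell markers had negative differences in siRRM1, from -0.63 for IRF4 (limma adjusted p = 0.0583) to -0.11 for PRDM1. Of the 9, 1 was called lower, FGFR3 (-0.54), beside 5.72% of all tested probe sets. In siRRM2 none of the 9 was called, with differences from -0.17 for MZB1 to 0.29 for CD38. The summed log2 signal of the 9 was 95.6 to 96.7 in siRRM1 and 99.0 to 99.1 in scramble, without overlap. Of single tested probe sets, 31.3% lay lower in siRRM1 without overlap. The part of this sum in the results was not tested either. Each siRNA lowered its target. The 2 RRM1 probe sets were at 22.4% and 24.3% of the scramble mean in siRRM1 replicate 1 and at 11.7% and 11.1% in replicate 2. The 2 RRM2 probe sets were at 21.2% and 12.8% in siRRM2 replicate 1 and at 39.6% and 18.5% in replicate 2. The actin control probe sets read 0.33 higher at the 3′ than the 5′ end in siRRM1 replicate 2 and 0.34 higher in scramble replicate 1, against 0.03 to 0.15 (log2) on the other 4 arrays. The results below are therefore also given without these arrays.

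In siRRM1 cells the transcripts of CCNE2 and CDK2, which act at the G1/S boundary, were higher than in scramble cells and that of the mitotic cyclin CCNB1 was lower, whereas CCNE1, CCND3, CDK4, CDK6, CCNA2, CCNB2 and CDK1 did not pass the test. Both probe sets of CCNE2, cyclin E2, rose about 2-fold, and the main probe set of its partner kinase CDK2 rose 1.44-fold. CCNB1, cyclin B1, fell to 63.2% of the scramble mean. In siRRM2 cells the differences of these 4 probe sets had the same signs. None of them passed in the main fit, and some passed in other fits.

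Differences were tested with limma over the 13366 probe sets whose mean reached the 40th percentile (a log2 signal of 5.44), and called at a Benjamini-Hochberg adjusted p under 0.05 over all of them. Of the 16 member probe sets 15 entered the test, and the other, CDK2 211803_at, was too dim. In siRRM1 against scramble, 3 of the 15 were higher and 1 was lower, with 6.39% of all tested probe sets called higher and 5.72% called lower. The 3 higher probe sets belong to 2 genes, CCNE2 and CDK2. Probe sets of a gene share its transcript, so counts of probe sets, here and below, are not counts of independent members. Over all probe sets this was 854 higher and 765 lower. After median centring of the arrays it became 746 higher and 1065 lower, and the members' counts stayed 3 and 1. The 15 member differences ran from -0.66 to 1.09 with a median of 0.03, and the median over all tested probe sets was -0.02. The 2 siRRM1 arrays lay above both scramble arrays in 6 of the 15, against 26.1% of all tested probe sets, and below both in 2 of the 15, against 31.3%.

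In siRRM2 against scramble, limma called 0 of the 15 member probe sets, and 4 had an unadjusted p under 0.05. This count depended on the fit. It was 1 with a trend in eBayes (CCNB1, limma adjusted p = 0.0331), 1 with only the siRRM2 and scramble arrays (CCNE2 211814_s_at, 0.0484) and 3 with the replicate number as a block (both CCNE2 probe sets and CCNB1). Of all tested probe sets, 1.11% were called higher and 0.202% lower there. The member differences ran from -0.54 to 0.62 with a median of -0.03, beside -0.01 over all tested probe sets. The siRRM2 arrays lay above both scramble arrays in 5 of the 15, against 25.9% of all tested probe sets, and below both in 1, against 28.8%. Both comparisons use the same scramble arrays, so their values are not independent of each other.

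**Figure D1:**
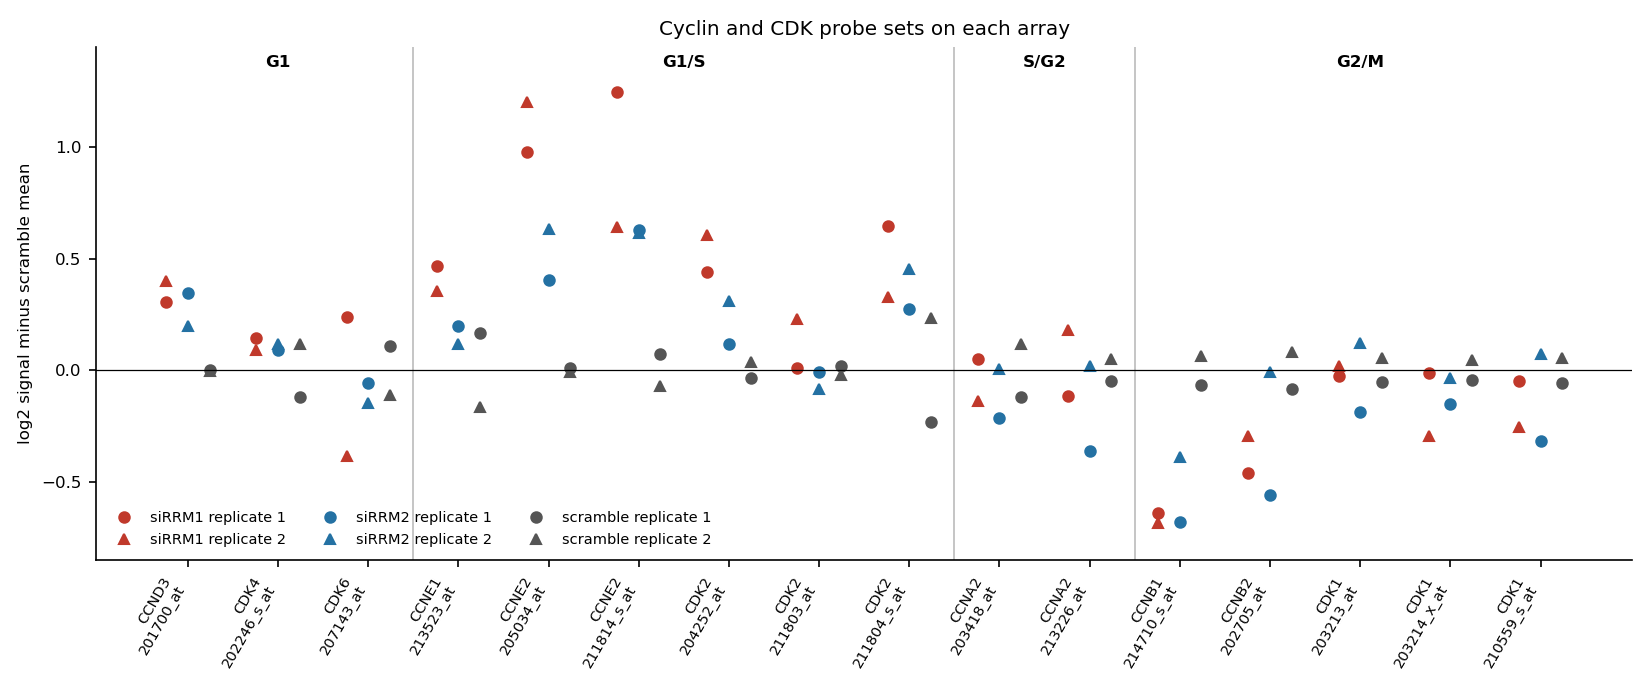
Log2 signal of each of the 16 probe sets on each array, minus the mean of the 2 scramble arrays; circles are replicate 1 and triangles replicate 2, in red for siRRM1, blue for siRRM2 and grey for scramble, with vertical lines between the phases in which the members act. The siRRM1 points of CCNE2 lie from 0.64 to 1.25 above the scramble mean, and those of CCNB1 lie 0.64 and 0.69 below it.

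Among the G1 members, CCND3 encodes cyclin D3, a D-type cyclin of lymphoid cells. CCND3 (201700_at) had log2 signals of 9.18 and 9.27 in siRRM1, 9.22 and 9.07 in siRRM2 and 8.87 and 8.87 in scramble. All 4 knockdown arrays lay above both scramble arrays, which differed from each other by only 0.003. The difference was 0.35 in siRRM1 (SE 0.10, limma adjusted p = 0.0568) and 0.27 in siRRM2 (SE 0.10, limma adjusted p = 0.199). CCND3 passed in siRRM1 under 4 of the 8 alternatives that keep all 6 arrays or both groups compared, with adjusted p between 0.0395 and 0.0933 over them.

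CDK4 and CDK6 are the kinases that D-type cyclins activate. CDK4 (202246_s_at) had log2 signals of 10.37 and 10.31 in siRRM1, 10.31 and 10.34 in siRRM2 and 10.10 and 10.34 in scramble. The knockdown arrays lay close together, and scramble replicate 2 lay among them. Its difference was 0.12 in siRRM1 (95% interval -0.13 to 0.37) and 0.10 in siRRM2 (-0.15 to 0.36). CDK6 (207143_at) had log2 signals of 7.91 and 7.29 in siRRM1, 7.61 and 7.52 in siRRM2 and 7.78 and 7.56 in scramble. The 2 siRRM1 arrays differed by 0.62, one above and one below both scramble arrays, which was the widest gap between replicates of any tested member probe set. The CDK6 interval was correspondingly wide, from -0.53 to 0.38 in siRRM1, so that a change of about 1.3-fold either way lies within it.

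The G1/S members, CCNE2 by both of its probe sets and CDK2 by 204252_at, made up 3 of the 4 calls. CCNE2 (205034_at) had log2 signals of 9.89 and 10.12 in siRRM1, 9.32 and 9.55 in siRRM2 and 8.92 and 8.91 in scramble. The 3 groups did not overlap, with siRRM2 between siRRM1 and scramble. CCNE2 by this probe set rose 2.13-fold in siRRM1 (log2 1.09, SE 0.12, limma adjusted p = 0.00372). In siRRM2 it was 1.43-fold the scramble level (log2 0.52, SE 0.12), which did not pass (limma adjusted p = 0.0883).

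The other CCNE2 probe set, 211814_s_at, had log2 signals of 8.88 and 8.27 in siRRM1, 8.26 and 8.24 in siRRM2 and 7.70 and 7.56 in scramble. Here siRRM1 replicate 2 lay within 0.03 of both siRRM2 arrays, and all 4 knockdown arrays lay above scramble. This probe set rose 1.93-fold in siRRM1 (log2 0.95, SE 0.18, limma adjusted p = 0.0211) and stood at 1.54-fold in siRRM2 (log2 0.62, SE 0.18, limma adjusted p = 0.143). The log2 values of both CCNE2 probe sets thus differed by 0.15 in siRRM1 and by 0.10 in siRRM2.

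CCNE1 encodes cyclin E1, the close relative of cyclin E2. CCNE1 (213523_at) had log2 signals of 8.76 and 8.64 in siRRM1, 8.48 and 8.40 in siRRM2 and 8.45 and 8.12 in scramble. Both siRRM1 arrays lay above scramble, while the siRRM2 arrays overlapped it. The log2 difference was 0.41 in siRRM1 (SE 0.13, limma adjusted p = 0.0779) and 0.16 in siRRM2 (SE 0.13, limma adjusted p = 0.554), and neither passed.

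CDK2 is the kinase that cyclin E and cyclin A activate. Its brightest probe set, 204252_at, had log2 signals of 9.09 and 9.26 in siRRM1, 8.77 and 8.96 in siRRM2 and 8.62 and 8.69 in scramble. As with CCNE2, the 3 groups did not overlap and siRRM2 lay in the middle. CDK2 by this probe set rose by log2 0.52 in siRRM1 (SE 0.11, limma adjusted p = 0.0266) and had a difference of 0.22 in siRRM2 (limma adjusted p = 0.348).

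A dimmer CDK2 probe set, 211804_s_at, had log2 signals of 7.76 and 7.45 in siRRM1, 7.39 and 7.57 in siRRM2 and 6.88 and 7.35 in scramble. The knockdown arrays were all above scramble, whose own arrays differed by 0.47. Its log2 difference of 0.49 in siRRM1 was close to that of 204252_at but did not pass (SE 0.18, limma adjusted p = 0.116). The third CDK2 probe set, 211803_at, lay between 4.07 and 4.38 on all 6 arrays, at the 20.8th percentile of probe set means, and its siRRM1 and scramble arrays overlapped.

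CCNA2 encodes cyclin A2, which pairs with CDK2 in S phase and with CDK1 in G2. CCNA2 (203418_at) had log2 signals of 9.98 and 9.79 in siRRM1, 9.71 and 9.94 in siRRM2 and 9.81 and 10.05 in scramble. The other probe set, 213226_at, had 10.33 and 10.62 in siRRM1, 10.08 and 10.46 in siRRM2 and 10.39 and 10.49 in scramble. All groups overlapped in both. The differences were -0.04 and 0.03 in siRRM1 and -0.10 and -0.17 in siRRM2, and the siRRM1 intervals (-0.35 to 0.26 and -0.33 to 0.39) leave room for changes of up to about 1.3-fold.

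The mitotic members were lower or level. CCNB1 (214710_s_at), which encodes the B-type cyclin whose destruction ends mitosis, had log2 signals of 10.89 and 10.85 in siRRM1, 10.85 and 11.14 in siRRM2 and 11.47 and 11.60 in scramble. All 4 knockdown arrays lay below both scramble arrays. In siRRM1 cells CCNB1 fell by 0.66 on the log2 scale (SE 0.12, limma adjusted p = 0.0174). In siRRM2 the log2 difference was -0.54 (SE 0.12), or 69.0% of the scramble mean, and did not pass (limma adjusted p = 0.0831).

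CCNB2 encodes cyclin B2, the second mitotic B-type cyclin. CCNB2 (202705_at) had log2 signals of 9.97 and 10.13 in siRRM1, 9.87 and 10.42 in siRRM2 and 10.34 and 10.51 in scramble. Both siRRM1 arrays lay below scramble, and the siRRM2 arrays differed by 0.55 and overlapped it. The log2 difference was -0.38 in siRRM1 (SE 0.18, limma adjusted p = 0.203) and -0.28 in siRRM2 (SE 0.18, limma adjusted p = 0.437).

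CDK1 is the kinase that both B-type cyclins activate. CDK1 (203213_at) had log2 signals of 10.83 and 10.88 in siRRM1, 10.67 and 10.98 in siRRM2 and 10.80 and 10.91 in scramble. Its siRRM1 and scramble means differed by 0.004, with a 95% interval of -0.29 to 0.28. The probe sets 203214_x_at and 210559_s_at had differences of -0.15 and -0.15 in siRRM1 and -0.09 and -0.12 in siRRM2. All 3 CDK1 probe sets overlapped between groups in both comparisons. CDK1 thus did not pass in cells in which its cyclin CCNB1 did, but the difference between these genes was not tested.

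**Figure D2:**
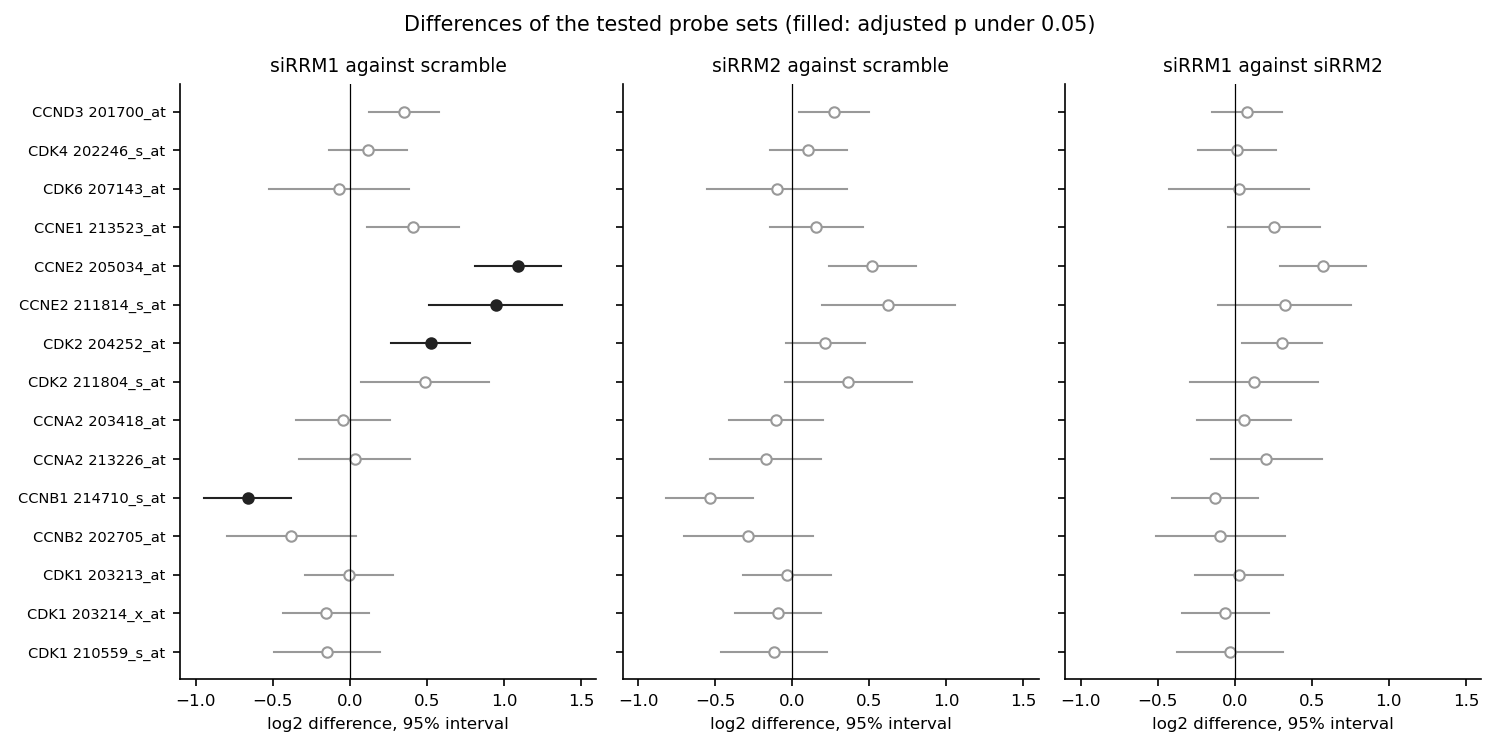
Log2 difference of each of the 15 tested probe sets in the 3 comparisons, with lines for the 95% interval of the limma fit over 6 arrays (2 per group) and filled points for an adjusted p under 0.05. Filled points appear only in siRRM1 against scramble, for CCNE2 (1.09 and 0.95), CDK2 (0.52) and CCNB1 (-0.66).

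The comparison of siRRM1 with siRRM2 tested whether the knockdowns differed from each other. Limma called 0 of the 15 member probe sets, with 0.0224% of all tested probe sets called higher and 0.015% lower, and 2 members had an unadjusted p under 0.05. These were CCNE2 205034_at (log2 0.57, 95% interval 0.29 to 0.85, limma adjusted p = 0.225) and CDK2 204252_at (log2 0.31, interval 0.05 to 0.57, limma adjusted p = 0.509). The siRRM1 arrays lay above both siRRM2 arrays in 4 of the 15, all of them G1/S members, against 17.3% of all tested probe sets. They lay below both in 0 of the 15, against 21.2%. For CCNB1 the difference was -0.13 (interval -0.41 to 0.15). The larger count of calls in siRRM1 than in siRRM2 is therefore not shown to be a difference between the knockdowns for any member.

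The members were also averaged by phase on each array. The 5 tested G1/S probe sets averaged 0.76 and 0.63 above the scramble mean in the siRRM1 arrays and 0.33 and 0.43 above it in the siRRM2 arrays. The 5 G2/M probe sets averaged -0.24 and -0.30 in siRRM1 and -0.38 and -0.05 in siRRM2, against -0.06 and 0.06 in the scramble arrays. On G2/M, siRRM2 replicate 2 thus lay within the scramble range. The 3 G1 probe sets averaged 0.23 and 0.04 in siRRM1 and 0.13 and 0.06 in siRRM2. The 2 S/G2 probe sets averaged -0.03 and 0.02 in siRRM1, -0.29 and 0.01 in siRRM2 and -0.08 and 0.08 in scramble. Probe sets of a gene share its transcript, so these means describe the arrays and carry no test.

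**Figure D3:**
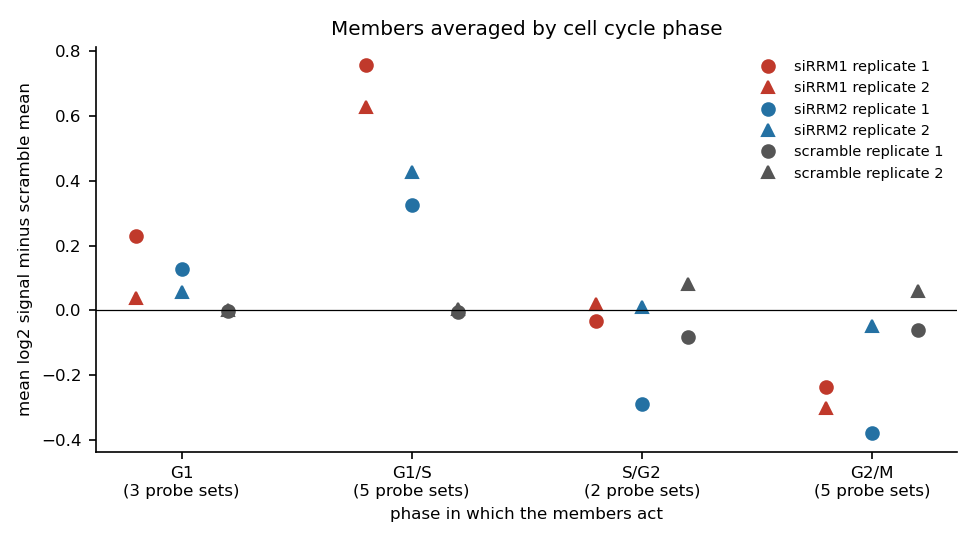
Mean over the tested probe sets of a phase of the log2 signal minus the scramble mean, with 1 point per array (circles replicate 1, triangles replicate 2; red siRRM1, blue siRRM2, grey scramble). In G1/S the siRRM1 arrays lie at 0.76 and 0.63 and the siRRM2 arrays at 0.33 and 0.43, while in G2/M siRRM2 replicate 2 (-0.05) lies within the scramble range.

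With 2 arrays a group, some calls were lost when an array was left out. Each such fit leaves a group with a single array and estimates the spread from fewer arrays. Whether a lost call came from that array or from the smaller fit was not tested. Leaving out either siRRM2 array removes no array compared here, and gives the same fit as only the 2 groups compared. CCNE2 205034_at stayed called in siRRM1 whichever array was left out (log2 0.98 to 1.20, limma adjusted p from 0.00781 to 0.0247). Without siRRM1 replicate 2, the array with the high actin 3′ to 5′ difference, CDK2 204252_at (log2 0.44, adjusted p = 0.122) and CCNB1 (-0.64, adjusted p = 0.0853) no longer passed by limma. Without scramble replicate 1, the other such array, CCNE2 211814_s_at (1.02, adjusted p = 0.0759), CDK2 (0.49, adjusted p = 0.130) and CCNB1 (-0.73, adjusted p = 0.0610) no longer passed. Without scramble replicate 2 the same 3 probe sets missed the threshold, with values of 0.87 (adjusted p = 0.0818), 0.56 (0.0749) and -0.60 (0.0733). The sign of all 4 called values held in each of these fits, but it could not have changed. In each of the 4 the siRRM1 and scramble arrays did not overlap. The part of RNA quality in these results was not tested.

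**Figure D4:**
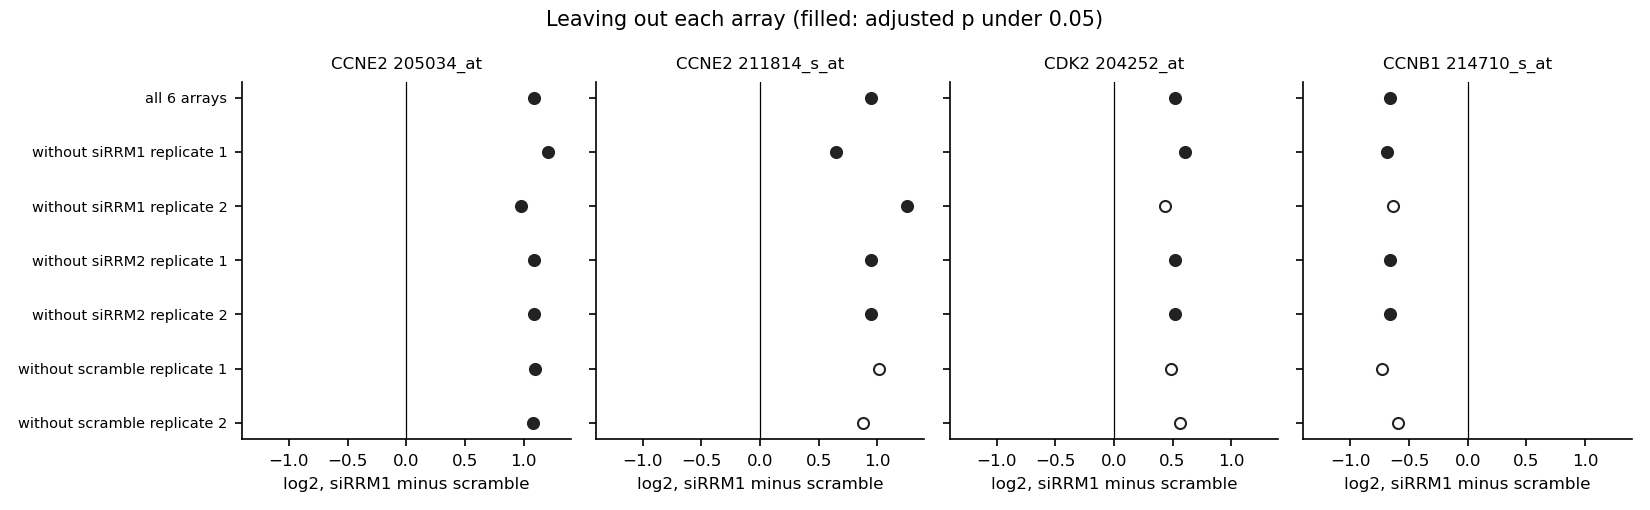
Log2 difference between siRRM1 and scramble for the 4 called member probe sets, over all 6 arrays and with each array left out in turn. Filled points have an adjusted p under 0.05. The fits without a siRRM2 array drop none of the arrays compared and are the same fit for this comparison. The CCNE2 205034_at values stay between 0.98 and 1.20 and filled throughout, while CDK2 and CCNB1 are open in 3 of the 6 fits.

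Other genes of the cyclin and CDK machinery were read from 7 lists, which hold 78 genes. The lists were drawn from general knowledge, with earlier results of these data known. Of these 73 had a probe set and 69 were tested, each gene by its brightest probe set. In siRRM1 against scramble 5 of the 69 rose and 10 fell, beside 6.39% and 5.72% of all tested probe sets. Those shares count probe sets, while the 69 are genes. With 1 probe set per gene, 5 of the 69 rose and 11 fell. That fit called 652 higher and 582 lower among the 10 members and 7926 other genes. In siRRM2 against scramble 1 rose and 1 fell in the main fit, beside 1.11% and 0.202% of all tested probe sets. The siRRM1 counts depended on the fit, in both directions. They were 4 higher and 5 lower with only the 2 groups compared, 7 and 13 with the replicate block and 7 and 14 with the eBayes trend. Leaving out siRRM1 replicate 1 raised both counts. Leaving out siRRM1 replicate 2, either scramble array or either siRRM2 array lowered both. In siRRM2 the fall was lost on leaving out any of the 6 arrays, and the rise without siRRM2 replicate 2. The fall was also lost with no filter, with median centring and with only the 2 groups compared. There were 2 falls with the 60th percentile filter, 1 probe set per gene, the eBayes trend or the replicate block. For the siRRM1 counts of each list below, the shares of 6.39% and 5.72% of all tested probe sets also apply. No list was tested as a set.

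Of 12 other cyclins tested, 2 rose and 1 fell in siRRM1. CCNG2, cyclin G2, a cyclin linked to cell cycle arrest, rose by log2 1.24 (SE 0.24, limma adjusted p = 0.0198), and its other probe sets rose by 1.13 and 0.87. CCND2, cyclin D2, rose by 0.55 (adjusted p = 0.0145), and its other tested probe set had a difference of 0.43 (adjusted p = 0.0957). CCNC, the Mediator cyclin, fell by 0.39 on the log2 scale, and its kinase CDK8, the 1 called gene among 9 other CDKs tested, fell by 0.67. In siRRM2, CCNG2 stood at 0.87 (adjusted p = 0.122) and CDK8 at -0.53 (adjusted p = 0.106).

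Of 5 CDK inhibitors tested, 2 rose in siRRM1. CDKN1A, an inhibitor of CDK2 complexes and a p53 target, rose by log2 2.83 in siRRM1 (SE 0.15, limma adjusted p = 4.22e-04) and by 2.09 in siRRM2 (SE 0.15, adjusted p = 0.00445). CDKN2A, whose products include an inhibitor of CDK4 and CDK6, rose by 0.59 in siRRM1 (adjusted p = 0.0248) and stood at 0.40 in siRRM2 (adjusted p = 0.153). In the list of CDK activation and inhibitory phosphorylation 1 of 10 fell, MNAT1, a subunit of the CDK-activating kinase (log2 -0.43). The phosphatases CDC25A, CDC25B and CDC25C and the kinase WEE1, which set the activity of CDK1 and CDK2, had differences between 0.002 and 0.14 in siRRM1 and did not pass. PKMYT1, the other inhibitory kinase of CDK1, had a difference of 0.52 (adjusted p = 0.0690) and the CDK-binding subunit CKS2 one of -0.40 (adjusted p = 0.0765), and neither passed. The list had 1 gene called higher under the eBayes trend.

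Of 12 genes of cyclin turnover, 4 fell and 0 rose in siRRM1, beside 5.72% and 6.39% of all tested probe sets. The 4 became 2 with only the 2 groups compared. They became 5 with the 60th percentile filter, median centring, the eBayes trend or the replicate block. Fewer fell on leaving out siRRM1 replicate 2, either scramble array or either siRRM2 array. CDC20, the activator of the anaphase-promoting complex that marks CCNB1 protein for destruction, fell by 0.93 on the log2 scale (SE 0.11, limma adjusted p = 0.00435), and by 0.61 in siRRM2, at the threshold (adjusted p = 0.04996). ANAPC10 and UBE2S, a subunit and a ubiquitin-conjugating enzyme of the same pathway, fell by 0.64 and 0.61 in siRRM1. The fourth was CDC27, another subunit, at -0.53. Of 15 upstream transcription factors and pocket proteins tested, E2F8 rose by 0.57 and E2F5 fell by 0.86, beside 6.39% and 5.72% of all tested probe sets. The other E2F5 probe set, below the filter, had a difference of 0.19. E2F1 (0.40, limma adjusted p = 0.0951) did not pass. Of 8 other mitotic kinases, the spindle checkpoint kinases BUB1 (-0.47) and BUB1B (-0.45) fell in siRRM1, while the other tested BUB1 probe sets disagreed (-0.58 and 0.15) and did not pass.

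Genes with profiles most like those of the strongest riser and faller were found by the root mean square difference over the 6 arrays, among 7926 other genes. Nearest to CCNE2 205034_at were RAP2B (0.06), PIDD1 (0.09), GADD45A (0.09), APOBEC3G (0.10) and KANK2 (0.10), in log2 units. Their differences from scramble ran from 0.99 to 1.23 in siRRM1 and from 0.50 to 0.64 in siRRM2. Nearest to CCNB1 were NRF1 (0.05), ADGRE2 (0.05), HNRNPH3 (0.05), TDRD3 (0.06) and FKBP14 (0.07), with differences from -0.72 to -0.58 in siRRM1 and from -0.62 to -0.46 in siRRM2. With only 6 arrays such likeness is a description.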

How the data were processed

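RNA of 6 arrays (2 each of siRRM1, siRRM2 and scramble) was measured on Affymetrix arrays from biotin-labelled cRNA, per the labels' protocols. The authors deposited log2 signals, and how they were summarised and normalized is not stated in the labels. The log base was read from the range of the values. Of 22277 probe sets, 19070 had 1 symbol in the platform annotation, 1043 several and 2164 none listed; 19058 matched RefSeq gene identifiers of GRCh38.p14, used for names only. Grouping followed the titles. Genes with several probe sets were read per probe set, and related genes by the brightest.

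Differences were computed with limma 3.58.1 in R 4.3.3 (lmFit, eBayes, all 6 arrays, 3 residual and 4.30 prior degrees of freedom), two-sided, adjusted over the 13366 probe sets above the 40th percentile, without a replicate block; intervals are 95%. An exact permutation test of 2 arrays against 2 cannot reach the threshold and was not used. The fit was tested on simulated data. Alternatives were other filters, 1 probe set per gene, median centring, quantile normalization, a trend in eBayes, only the groups compared, a replicate block and leaving out each array. Named genes are all members, RRM1 and RRM2, up to 3 called genes per list with the largest siRRM1 difference, and the 5 nearest profiles of the strongest riser and faller; CDC27, and the uncalled genes given with values, were named after their values were seen. The number of arrays limits the precision. The members and lists were chosen with earlier results of these data known. Promoters were matched by symbol for 8 of the 10 members.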

Additional observations from a re-analysis of the deposited data

How the results depend on the processing

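Of the 15 tested member probe sets, 4 were called in siRRM1 against scramble. The fit with 1 probe set per gene tested only 10 of them, without CCNE2 211814_s_at. Its 4 calls included CCND3 (limma adjusted p = 0.0429). Other filters, 1 probe set per gene, both scalings, the eBayes trend, only the 2 groups compared and the replicate block gave between 4 and 6 calls, and leaving out single arrays gave from 1 to 4. In siRRM2 against scramble the count of 0 became 1 with the eBayes trend (CCNB1, adjusted p = 0.0331), 1 with only the 2 groups compared (CCNE2 211814_s_at, adjusted p = 0.0484) and 3 with the replicate block, and leaving out single arrays gave from 0 to 1. Between the knockdowns it stayed 0 in every setting run. No called member value changed sign under these alternatives. The siRRM1 and scramble arrays of the called members did not overlap, so only the scalings could have changed a sign.

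Same-numbered arrays deviated together (r = 0.21, 0.35 and 0.36 across probe sets for the 3 pairs of groups), but the labels tie no numbers together and 2 arrays a group cannot settle it. With the replicate block, siRRM1 gave 6 member calls, adding CCND3 (limma adjusted p = 0.0405) and CCNE1 (0.0262), and siRRM2 gave 3, both CCNE2 probe sets (0.0301 and 0.0475) and CCNB1 (0.0314). Over all probe sets the block gave 2731 calls in siRRM1 in place of 1619, 704 in siRRM2 in place of 176 and 101 between the knockdowns in place of 5. The eBayes trend gave 352 in siRRM2 and 16 between the knockdowns, 1 probe set per gene gave 13 and the 60th percentile filter 3 between them, and only the 2 groups compared gave 926 in siRRM1. Leaving out single arrays gave from 386 to 2026 calls in siRRM1, from 6 to 140 in siRRM2 and from 2 to 5 between the knockdowns. Fits that leave out an array or a group have fewer arrays, and the cause of the other shifts was not tested.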

Other observations

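The late-cycle members differed the same way between replicates in the siRRM2 and scramble groups. In all 7 tested probe sets of CCNA2, CCNB1, CCNB2 and CDK1, siRRM2 replicate 1 was below siRRM2 replicate 2, by 0.12 to 0.55 (median 0.31), and scramble replicate 1 was below scramble replicate 2, by 0.09 to 0.24 (median 0.11). In siRRM1 this held for 3 of the 7. CDK1 and CCNA2 each have several of these probe sets, which share a transcript, so the 7 are not independent. Over all tested probe sets, replicate 1 was below replicate 2 in 53.8% in siRRM2, in 48.6% in scramble and in 44.9% in siRRM1. RRM2 itself was lower in siRRM2 replicate 1 than in replicate 2, at 21.2% and 39.6% of the scramble mean by 201890_at and at 12.8% and 18.5% by 209773_s_at. Whether the depth of the knockdown has a part in the order of the late-cycle members was not tested.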
